A study of Mus musculus with 36 samples.

Results

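Heme is built in a chain of enzymatic steps that start and end in the mitochondrion and pass through the cytosol. The liver uses most of its heme for cytochromes P450, and excess heme is cleaved to biliverdin, iron and carbon monoxide by heme oxygenases before biliverdin reductases make bilirubin. In hepatocytes the rate of the pathway is set mainly by its first enzyme, ALAS1, whose transcript is repressed by heme and induced in fasting. Described here are 9 genes of this pathway, selected by their symbols in the count table out of 54532 genes: *Alas1*, *Alad*, *Uros*, *Urod*, *Cpox*, *Ppox* and *Fech* of synthesis, and *Hmox1* and *Blvrb* of breakdown. All 9 reached the minimum of 100 counts summed across libraries, as did 17994 genes in total, so that no member was lost to the filter on low counts.

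The 36 libraries came from livers of adult male mice aged 2 to 3 months that carry the Thrbtm1Df allele of the thyroid hormone receptor beta gene *Thrb*, which impairs DNA binding of the receptor, on a background bred to C57Bl/6NCrl. The allele is germline and acts in every tissue, not only in the liver. The paper names raised serum levels of the thyroid hormone T3 in such knockouts as a limitation. The genotype comparison therefore cannot tell loss of the receptor in the liver apart from altered hormone. The 18 control mice were heterozygous (THRB+/-, called THRBWT), so that controls carry the allele too, and 18 were homozygous (THRB-/-, THRBKO). All were fed normal chow ad libitum under 12 h of light and 12 h of dark, received no drug, and were killed at ZT2, ZT6, ZT10, ZT14, ZT18 or ZT22 (zeitgeber time, hours after lights on), with 3 mice per genotype and time. The comparisons ask whether loss of THRB changes the level of these transcripts, whether it changes their timing, and how they move over the day.

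The libraries held 29063273 to 39913574 counts in THRBWT and 31008555 to 42530551 in THRBKO livers. *Thrb* itself was counted at 24.3 to 38.5 CPM (reads per gene relative to library size, scaled by TMM factors) in THRBWT, with a median of 27.9, and at 26.2 to 37.7 CPM in THRBKO, with a median of 31.9. These ranges overlapped, and since counts per gene include transcripts with the altered part, they do not check the genotype labels. Of the 5 hepatocyte markers (*Alb*, *Apoa1*, *Ttr*, *Serpina1a*, *Cps1*) all were counted, with a summed level of 61207 to 88559 CPM in THRBWT and 68052 to 92520 CPM in THRBKO. Erythroid markers summed to 219 to 984 CPM (median 330.3) against 145 to 646 CPM (median 283), and Kupffer cell markers to 132 to 449 CPM (median 169) against 133 to 263 CPM (median 165). In these bulk libraries fewer cells of a type and less RNA per cell cannot be told apart.

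Promoter windows of the RefSeq annotation (GRCm38.p6) were given for 7 of the 9 members. *Fech* and *Hmox1* had no entry. They are shown because the members differ in their time course, and the searched motifs are ones bound by clock, nutrient or redox factors. Searched on both strands of each 300-base window (250 bases before to 50 after the start) were the E-box CACGTG bound by CLOCK and BMAL1, the cyclic AMP response element TGACGTCA, the half-site AGGTCA of ROR and REV-ERB receptors, the D-box TTATGTAA, the core TGACNNNGC of the antioxidant response element, the letters TATAAA, and the core CGCATGCG of nuclear respiratory factor 1. None of these spellings lies within another. For the 4 members with a match, the 250 bases before a start site are printed 5′ to 3′ on the strand of the gene, all of them minus, with the match in capitals. The windows lie at chr9:106247731-106247980 for *Alas1*, chr4:62519910-62520159 for *Alad*, chr7:133709296-133709545 for *Uros* and chr4:116994414-116994663 for *Urod*.
Alas1: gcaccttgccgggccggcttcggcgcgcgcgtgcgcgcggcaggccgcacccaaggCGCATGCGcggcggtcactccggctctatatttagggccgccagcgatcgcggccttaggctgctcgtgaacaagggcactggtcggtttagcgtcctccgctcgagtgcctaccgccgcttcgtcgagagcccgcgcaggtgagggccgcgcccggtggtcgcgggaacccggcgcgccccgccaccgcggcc
Alad: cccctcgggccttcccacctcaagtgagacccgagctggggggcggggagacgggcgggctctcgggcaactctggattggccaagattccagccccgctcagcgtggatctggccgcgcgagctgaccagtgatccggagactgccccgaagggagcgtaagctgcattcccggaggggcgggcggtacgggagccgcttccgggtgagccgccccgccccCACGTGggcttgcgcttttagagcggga
Uros: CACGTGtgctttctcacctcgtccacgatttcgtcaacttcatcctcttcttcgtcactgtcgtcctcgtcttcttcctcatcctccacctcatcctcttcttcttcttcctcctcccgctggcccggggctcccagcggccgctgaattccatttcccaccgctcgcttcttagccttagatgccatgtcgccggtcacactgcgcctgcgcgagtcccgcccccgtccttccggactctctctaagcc
Urod: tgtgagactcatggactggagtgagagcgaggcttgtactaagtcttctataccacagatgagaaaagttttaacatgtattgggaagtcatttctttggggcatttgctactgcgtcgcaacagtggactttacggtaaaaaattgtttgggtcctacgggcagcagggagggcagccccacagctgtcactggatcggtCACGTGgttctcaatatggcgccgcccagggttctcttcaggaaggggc

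*Alas1* held the NRF1 core, which 1.87% of 32851 RefSeq windows of this length hold, beginning at position -194 from the start site of the printed window. From the start site of another *Alas1* window the same match begins at position 31, which is after that start. The E-box, present in 7.15% of windows, began at -28 in *Alad*, at -49 in *Urod* and at -250 in *Uros*. A second window of *Alad* also held it, at -105 from its own start, and a second window of *Uros* did not. The other motifs, held by 1.79% (cyclic AMP response element), 16.3% (AGGTCA), 0.938% (D-box), 12.4% (antioxidant response core) and 13.6% (TATAAA) of windows, matched in no member's window. The windows of *Cpox*, *Ppox* and *Blvrb* held none of the 7 motifs. These are matches of letters, not measured binding, and of the 3 members with an E-box only *Uros* changed with sampling time in the counts described next.

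Levels can be compared between genes only per length, so CPM were divided by the length of the gene model in kb. *Alad*, whose enzyme condenses aminolevulinate to porphobilinogen, stood at the top with 156 ± 15.2 CPM per kb (SD, n = 18) in THRBWT. It was followed by *Alas1* at 85.8 ± 74.0, *Fech*, the ferrochelatase that inserts iron, at 57.4 ± 9.89, and the biliverdin reductase gene *Blvrb* at 53.8 ± 9.59 CPM per kb. *Urod* (uroporphyrinogen decarboxylase) had 36.4 ± 2.28 and *Cpox* (coproporphyrinogen oxidase) 19.5 ± 3.22 CPM per kb. *Hmox1*, the inducible heme oxygenase, had 11.8 ± 2.82, *Ppox* (protoporphyrinogen oxidase) 7.54 ± 0.920 and *Uros* (uroporphyrinogen III synthase) 6.24 ± 1.02 CPM per kb.

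Over all 36 livers, the order *Blvrb* above *Urod* above *Cpox* above *Hmox1* held in 36 of 36 libraries at each of these steps, while *Alas1* was above *Fech* in 21 and *Fech* above *Blvrb* in 21 of 36. *Alad* exceeded *Alas1* in 29 livers, *Hmox1* exceeded *Ppox* in 35 and *Ppox* exceeded *Uros* in 32. The neighbours *Alas1*, *Fech* and *Blvrb* were therefore not separated beyond the spread between livers. *Uros* shares 740 bases with *Bccip* on the other strand (mean of 2076 counts) and *Ppox* shares 907 bases with *B4galt3* (mean of 272.8 counts). The libraries were not strand-specific, so counts of *Uros* and *Ppox* cannot be told apart from these neighbours where the models overlap.

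**Figure D1:**
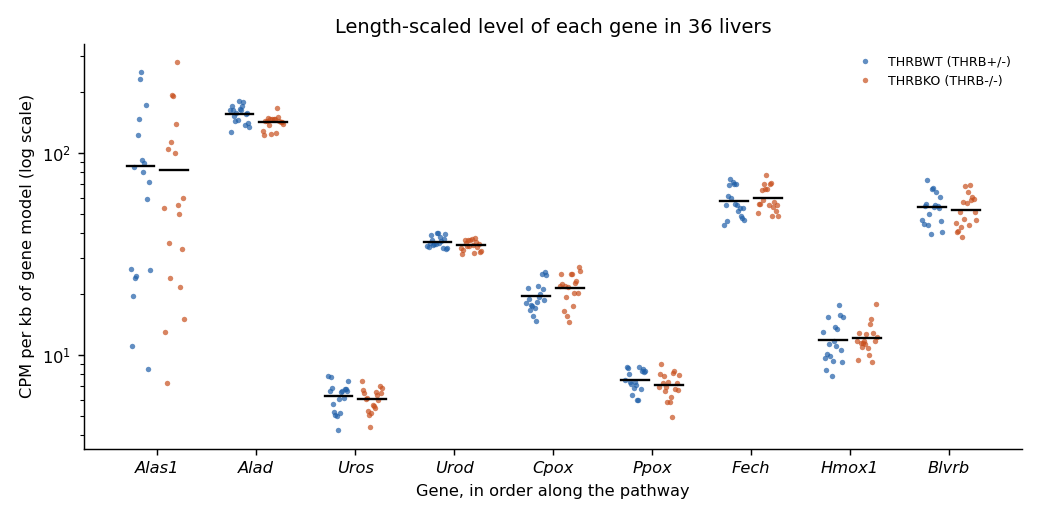
CPM per kb of gene model (log scale) of the 9 genes in order along the pathway, each point a liver, bars the mean of 18 livers per genotype. *Alad* has the highest mean at 156 CPM per kb in THRBWT, *Uros* the lowest at 6.24, and *Alas1* spreads from 7.23 to 280.4 CPM per kb over the 36 livers.

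In the models without a replicate block, no member passed the test for genotype. With sampling time in the model, 0 of 9 members had an adjusted p under 0.05 (quasi-likelihood test of edgeR, adjusted by Benjamini-Hochberg), against 0.95% of the 17994 genes tested (91 higher and 80 lower in THRBKO). With all times pooled it was 0 of 9 against 0.361%, and for the genotype by time interaction 0 of 9 against 0% of genes. At the 6 single times 0 members passed at any time, against 0.0195% of all combinations of a gene and a time. Without adjustment, p was under 0.05 for 3 members with time in the model (2169 of 17994 genes), for 1 with times pooled (1259 genes), for 0 in the interaction (484 genes), and for 3 combinations of a member and a time (741 to 977 genes per time). DESeq2 gave 0 adjusted calls among the members in the first 3 of these tests, against 306, 99 and 0 calls over all genes. Before adjustment 3, 1 and 0 members were under 0.05.

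The 95% intervals come from the model with time and no block. Each is for a single gene, without adjustment for the number of genes tested. Those of *Alad*, *Urod* and *Cpox* exclude 1, although none of these genes was called after adjustment in that model. For *Urod* the fold THRBKO over THRBWT was 0.959 (0.919 to 0.9997), for *Uros* 0.968 (0.916 to 1.02) and for *Fech* 1.04 (0.981 to 1.11). *Ppox*, at 0.941 (0.884 to 1.002), had a lower mean in THRBKO at 6 of 6 times, and *Fech* a higher mean at 5 of 6. *Hmox1* was at 1.03 (0.913 to 1.17) and *Blvrb* at 0.963 (0.864 to 1.07). The interval of *Alas1*, 0.963 (0.637 to 1.46), was the widest of the 9.

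*Alad* and *Cpox* lay farthest from 1. *Alad* ranged from 238 to 336 CPM in THRBWT with a median of 294, and from 229.5 to 312 CPM in THRBKO with a median of 269. The groups overlapped, although the THRBKO mean was the lower at 6 of 6 times. Its log2 fold change was -0.14 (SE 0.043, adjusted p = 0.139), or 0.910-fold (0.856 to 0.967). With a block for each time and letter of the mice it was -0.13 with an adjusted p of 0.0451. *Alad* was the only member called by genotype in that fit, which called 387 genes in all. *Cpox* ranged from 97.7 to 170.3 CPM in THRBWT (median 125) and from 96.4 to 181 CPM in THRBKO (median 145), higher on average in THRBKO at 5 of 6 times. Its log2 fold change was 0.14 (SE 0.058, adjusted p = 0.321), or 1.10-fold (1.01 to 1.19).

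A property of the libraries moved with these values. The mean log2 CPM of 76 ribosomal protein genes was 7.67 ± 0.153 (SD, n = 18) in THRBWT and 7.58 ± 0.110 in THRBKO. Across the 36 livers it correlated with *Alad* at r = 0.774, with *Urod* at 0.743, with *Blvrb* at 0.629 and with *Cpox* at -0.489, and after removal of the 12 group means at 0.730, 0.769, 0.660 and -0.617. These are descriptions over libraries that share both measures, and the part of this axis in the genotype differences was not tested.

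**Figure D2:**
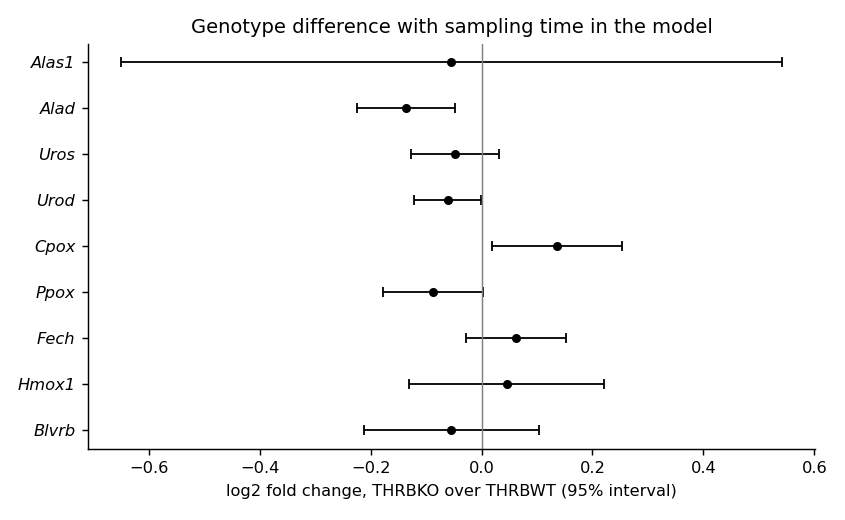
Log2 fold change of THRBKO over THRBWT (x axis) for the 9 genes with sampling time in the model, points the estimate and bars its unadjusted 95% interval. The estimates lie between -0.14 (*Alad*) and 0.14 (*Cpox*), with the widest interval for *Alas1*, from -0.65 to 0.54, and none passes an adjusted p of 0.05.

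Time of day moved 5 of the 9 genes. Sampling time changed *Alas1*, *Uros*, *Cpox*, *Ppox* and *Fech* (adjusted p under 0.05), a share of 55.6% against 45% of all genes tested, which is near the background for this liver series. *Alad*, *Urod*, *Hmox1* and *Blvrb* did not pass. Among the 5, *Alas1* had a range over the times of 7.67-fold between the highest and lowest mean of both genotypes, and the other 4 ranges of 1.36 to 1.49-fold.

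*Alas1* encodes the enzyme that joins glycine and succinyl-CoA. At ZT2 the 3 THRBWT livers had 163, 68.1 and 121 CPM and the THRBKO livers 328, 79.8 and 44.7. At ZT6 they had 525, 149 and 151 against 641, 221 and 148 CPM. At ZT10 all were high, with 756, 909 and 1436 against 699.8, 1187 and 1181 CPM. None of the ZT10 livers overlapped with those of ZT2, ZT6 or ZT22. At ZT14 the values were 1552, 570.5 and 499 in THRBWT and 617, 861 and 1731 CPM in THRBKO. At ZT18 they were 549, 1064 and 363 against 339, 306 and 134, and at ZT22 52.5, 442 and 162 against 205, 368 and 92.3 CPM. Livers of the same genotype and time differed widely, as at ZT22 in THRBWT.

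The mean of *Alas1* over both genotypes was highest at ZT10, 1028 ± 287 CPM (SD, n = 6), and lowest at ZT2, 134 ± 104 CPM (adjusted p for time = 2.72e-05). Each time in the order ZT10, ZT14, ZT18, ZT6, ZT22, ZT2 overlapped with the next. The largest genotype difference of *Alas1* at a single time was at ZT18, with means of 260 ± 110.4 CPM in THRBKO and 658 ± 363 CPM in THRBWT (log2 fold change -1.34, SE 0.73, adjusted p = 0.945). The 3 THRBKO livers ranged from 134 to 339 CPM and the 3 THRBWT livers from 363 to 1064 CPM. This time was picked for its difference, and the share of all genes with groups apart there was not computed. The difference did not pass the test, and no gene passed the interaction test over the times. The spread between mice of the same genotype and time, 0.97 as an SD of log2 CPM, was higher than that of 99.2% of 11918 genes with a mean of at least 50 counts, whose median was 0.17. *Urod*, at 0.084, was above only 4.77% of them.

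**Figure D3:**
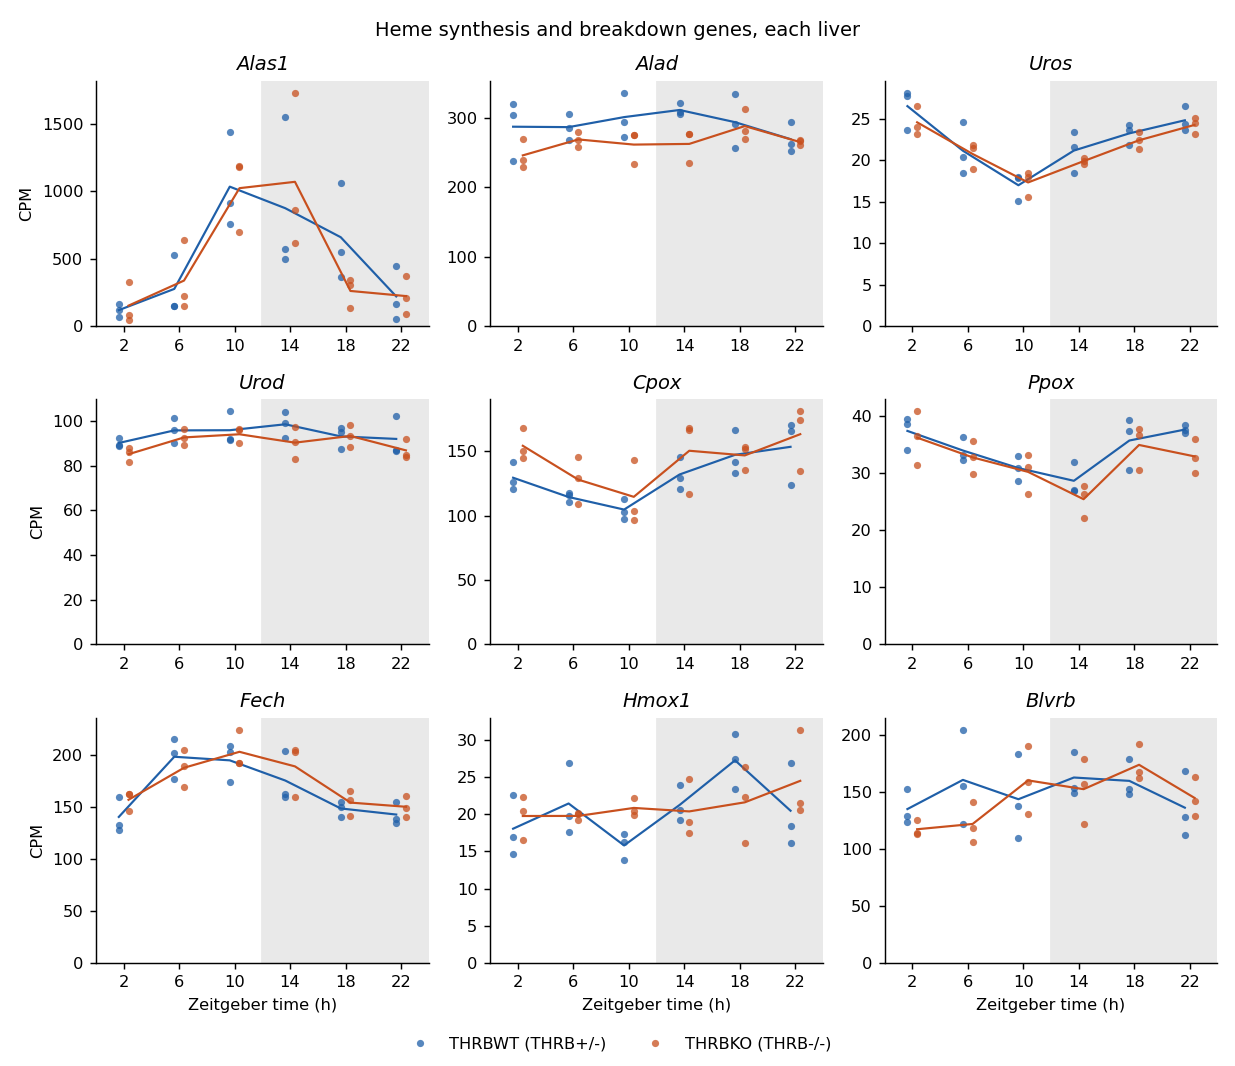
CPM of the 9 genes (y axis, from 0) against zeitgeber time (x axis, h), each point a liver, lines joining the means of 3 mice per genotype and time, grey for the dark phase. *Alas1* climbs from 134 CPM at ZT2 to 1028 CPM at ZT10 in the mean of both genotypes, *Uros* and *Cpox* have their lowest mean at ZT10 in each genotype, *Fech* its highest at ZT6 in THRBWT and at ZT10 in THRBKO, and *Alad* varies 1.16-fold and 1.17-fold between times.

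The 3 cytosolic members differed from each other in time course. *Uros* was lowest at ZT10, where the 6 livers ranged from 15.1 to 18.4 CPM with a median of 17.9, and highest at ZT2, where they ranged from 23.1 to 28.16 CPM with a median of 25.3. These times did not overlap, and the fold between the means was 1.49 (adjusted p for time = 1.23e-07). Over both genotypes *Alad* stayed between means of 266 CPM at ZT2 and 291 CPM at ZT18 (adjusted p = 0.556), and *Urod* between 87.6 CPM at ZT2 and 94.9 CPM at ZT10 (adjusted p = 0.240).

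The 3 mitochondrial members downstream also differed. *Cpox* rose from a median of 103 CPM at ZT10 (96.4 to 144) to 168 CPM at ZT22 (124 to 181), 1.44-fold between the means (adjusted p = 0.000384). *Ppox* had its lowest mean at ZT14, with livers at 22.2 to 32.0 CPM and a median of 27.0, and its highest at ZT2, with livers at 31.4 to 40.9 CPM and a median of 37.5 (1.36-fold, adjusted p = 9.07e-05). *Fech*, the last enzyme of synthesis, moved the other way, with livers at 135 to 160.4 CPM and a median of 145 at ZT22 and at 174 to 224 CPM and a median of 197 at ZT10 (1.36-fold, adjusted p = 1.96e-06). The ZT10 and ZT22 livers of *Fech* did not overlap. Without the mice of letter c the adjusted p of *Cpox* was 0.0510. For each of the 9 genes at least 4 of the 5 neighbouring pairs in its order of times overlapped.

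Of the genes of breakdown neither passed the test for time. *Hmox1* lay between 16.2 and 30.8 CPM at ZT18 (median 24.9) and between 13.8 and 22.3 CPM at ZT10 (median 18.6), with adjusted p = 0.139. *Blvrb*, the reductase of flavins and biliverdin IX beta, lay between 148 and 192 CPM at ZT18 (median 165) and between 113 and 153 CPM at ZT2 (median 125), with adjusted p = 0.124. Without the mice of letter c *Blvrb* had an adjusted p of 0.0424.

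Dark and light phase were compared as the mean of ZT14, ZT18 and ZT22 against that of ZT2, ZT6 and ZT10. Higher in the dark were *Cpox* (log2 difference 0.27, SE 0.058, adjusted p = 0.000348), *Hmox1* (0.23, SE 0.086, adjusted p = 0.0373) and *Uros* (0.11, SE 0.039, adjusted p = 0.0281), 3 of 9 members against 17.2% of all genes. *Fech* was lower in the dark (-0.17, SE 0.044, adjusted p = 0.00317), 1 of 9 against 17.4%. Light and dark livers overlapped for each of them: *Cpox* had 96.4 to 168 CPM in the light (median 119) and 117 to 181 CPM in the dark (median 149), and *Fech* 128 to 224 CPM (median 183) and 135 to 205 CPM (median 156). *Alas1*, which straddles lights off, had a log2 difference of 0.40 (SE 0.29, adjusted p = 0.306). Without the mice of letter c the adjusted p became 0.355 for *Uros*, 0.0751 for *Fech* and 0.247 for *Hmox1*, and without the mice of letter b it was 0.0652 for *Uros*. Calls also appeared, for *Blvrb* without letter c (0.25, adjusted p = 0.0186) and for *Alas1* without letter a (0.96, adjusted p = 0.0181), and without letter a that of *Hmox1* was at 0.0749.

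The dark-phase call of *Hmox1* was also lost without a single control liver. HMOX1 is the enzyme of macrophages that clear red cells as well as of stressed hepatocytes, and the sum of the 6 Kupffer cell markers (*Clec4f*, *Vsig4*, *Adgre1*, *Cd5l*, *Timd4*, *Marco*, none at 0 in all livers) correlated with *Hmox1* at r = 0.477 over 36 livers and 0.547 after removal of the group means. The THRBWT liver b at ZT18 had the highest marker sum, 449 CPM, and 30.8 CPM of *Hmox1*. Without it the log2 difference of *Hmox1* was 0.20 (adjusted p = 0.0672), against 0.23 with it. The mean marker sum was 211 CPM at ZT2, 178 CPM at ZT6 and 205 CPM at ZT10 in the light, and 160.2 CPM at ZT14, 214 CPM at ZT18 and 195 CPM at ZT22 in the dark. Its highest and its lowest mean were thus both in the dark, and its part in the *Hmox1* difference was not tested.

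A 24 h sine curve was tested within each genotype, the study's second question. In THRBWT 5 of 9 members were rhythmic against 33.1% of genes: *Alas1*, *Uros*, *Cpox*, *Ppox* and *Fech*. In THRBKO 4 were rhythmic against 28.9%: *Alas1*, *Uros*, *Fech* and *Blvrb*. *Cpox* and *Ppox* missed the threshold in THRBKO with adjusted p = 0.0657 and 0.0590, while *Blvrb* had 0.571 in THRBWT and 0.0156 in THRBKO. A call in THRBWT and not in THRBKO is no difference between them, and the difference itself was tested on the curves.

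In these fits of both genotypes on variance-stabilized counts, the amplitude of 0 of 9 and the peak time of 0 of 9 members differed at an unadjusted p under 0.05, against 1.79% and 7.17% of genes. The mesor, the mean of the curve, differed for 3 of 9 at this threshold against 11.2% of genes: *Alad* by -0.13 (SE 0.042), *Urod* by -0.06 (SE 0.027) and *Cpox* by 0.13 (SE 0.062) on the log2 scale, with adjusted p of 0.169, 0.413 and 0.434. Omission of the mice of letter a, of b or of c brought this count of 3 to 2, 1 and 0. The difference in amplitude of *Blvrb* was 0.15 (SE 0.110, adjusted p = 1). The peak of *Alas1* in THRBKO minus that in THRBWT was -0.96 h (SE 1.03, adjusted p = 0.954) and that of *Uros* 0.10 h (SE 0.943, adjusted p = 0.999).

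In a fit of both genotypes, *Fech* peaked at 9.76 h (SE 0.477) and *Alas1* at 12.7 h (SE 0.509), the first and the last enzyme within 3 h of each other. *Cpox* peaked at 20.7 h (SE 0.688), *Uros* at 22.8 h (SE 0.456) and *Ppox* at 0.259 h (SE 0.718), that is around lights on. The fitted peak was 9.30-fold above the trough for *Alas1* and 1.29 to 1.42-fold for these other 4. The peaks of *Hmox1* (19.0 h, SE 1.62), *Blvrb* (15.1 h, SE 1.23), *Alad* (13.98 h, SE 1.93) and *Urod* (11.9 h, SE 1.298) belong to genes without a call for time.

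**Figure D4:**
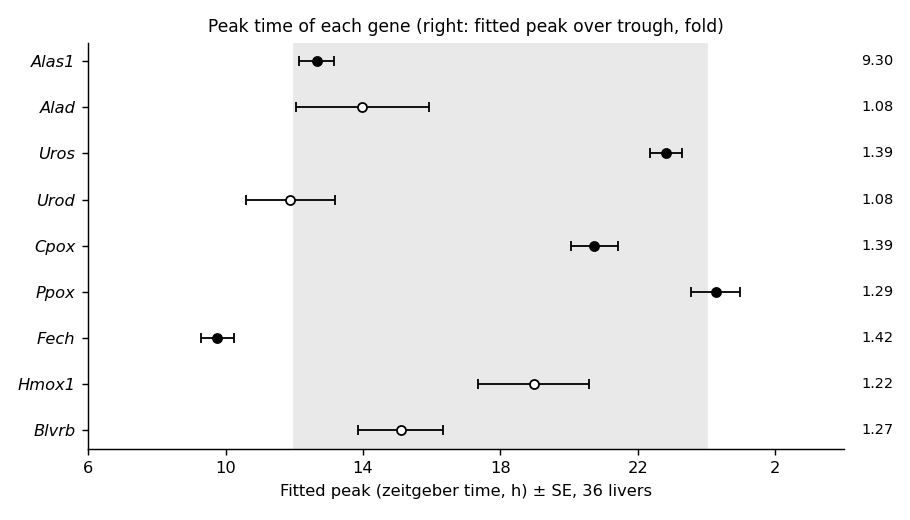
Fitted peak of each gene in zeitgeber time (x axis, h, points with SE bars, 36 livers), filled where sampling time passed the test, grey for the dark phase, and the fitted fold of peak over trough at the right. *Fech* and *Alas1* peak at 9.76 and 12.7 h, *Cpox*, *Uros* and *Ppox* between 20.7 h and just after lights on.

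Some members moved together from liver to liver. *Uros* and *Fech*, the pair with opposite time courses, had r = -0.873 between their log2 CPM over 36 livers and -0.805 after removal of the group means. *Alad* and *Urod* had 0.730 and 0.686, *Urod* and *Blvrb* 0.667 and 0.731, and *Alad* and *Blvrb* 0.600 and 0.645. *Alas1* followed none of the synthesis genes within groups, with r from -0.208 (*Ppox*) to 0.251 (*Uros*). The points share libraries, which differed in the balance of long and short genes. As its measure, log2 CPM were centred on the mean of each gene. The median of genes in the upper quartile of length minus that of the lower quartile spanned -0.19 to 0.21. This difference correlated within groups with *Fech* at 0.786, *Urod* at -0.783, *Alad* at -0.703 and *Uros* at -0.644. Its part in these correlations was not tested.

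Among 11917 other genes with a mean of at least 50 counts, the patterns most like *Alas1* over the 36 livers were those of *Prr3* (r = 0.881), *Amd1* (0.877) and *Slc12a4* (0.855). For *Fech* they were *Mon2* (0.938), *Phactr4* (0.918) and *Slc6a9* (0.918), for *Uros* *Blcap* (0.901), *Fpgs* (0.882) and *Ggct* (0.875), and for *Cpox* *Lrrfip1* (0.836), *Arhgef18* (0.822) and *N4bp2l2* (0.818). *Ppox* was nearest to *Mapk15* (0.843), *Ppdpf* (0.800) and *C330021F23Rik* (0.798). For *Alad* and *Urod* ribosomal genes led, with *Rpl11* (0.816), *Rps15* (0.813) and *Rps18* (0.811) for the former and *Mrpl41* (0.887), *Rpl19* (0.816) and *Mrpl14* (0.800) for the latter. *Blvrb* was nearest to *Galk1* (0.815), *Grina* (0.804) and *Cyb5a* (0.799), and *Hmox1* to *Ppp1r9b* (0.719), *Gltp* (0.652) and *Slc11a1* (0.646), the lowest of the 9.

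The pathway's other genes are given by the lists they belong to. Of the other enzymes described (*Alas2*, *Hmox2*, *Blvra*) none passed the test for genotype, and *Hmox2*, the constitutive heme oxygenase, changed with time at 1.31-fold (adjusted p = 4.43e-05). *Alas2*, the erythroid synthase, was lower in the THRBKO mean at 6 of 6 times, at 73.3 ± 13.7 against 89.5 ± 16.1 CPM (SD, n = 18), with a log2 fold change of -0.29 (SE 0.094, adjusted p = 0.150). *Alas2* is also an erythroid marker, and the median log2 fold change of the 6 tested erythroid markers was -0.37.

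Of 11 genes of mitochondrial heme and iron handling 7 changed with time, against 45% of all genes, and 0 with genotype, against 0.95%. The largest range was that of *Clpx*, an unfoldase that activates ALAS and in mammals also takes part in its turnover. *Clpx* ran opposite to *Alas1*: its mean was 288 ± 40.2 CPM (SD, n = 6) at ZT2 and 53.9 ± 4.69 CPM at ZT10, 5.34-fold (adjusted p = 8.39e-16). The 6 livers at ZT10 had 48.6 to 61.4 CPM and those at ZT2 223 to 339 CPM. In THRBWT the mean of *Alas1* was 8.81-fold higher at ZT10 than at ZT2 and that of *Clpx* 5.11-fold higher at ZT2 than at ZT10, and in THRBKO the folds were 6.79 and 5.56. The correlation of *Alas1* and *Clpx* was -0.790 over the 36 livers and -0.285 after removal of the group means. Of the iron and heme carriers, *Slc25a37*, the mitochondrial iron importer, varied 1.502-fold with its highest mean at ZT10 (adjusted p = 1.51e-05).

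**Figure D5:**
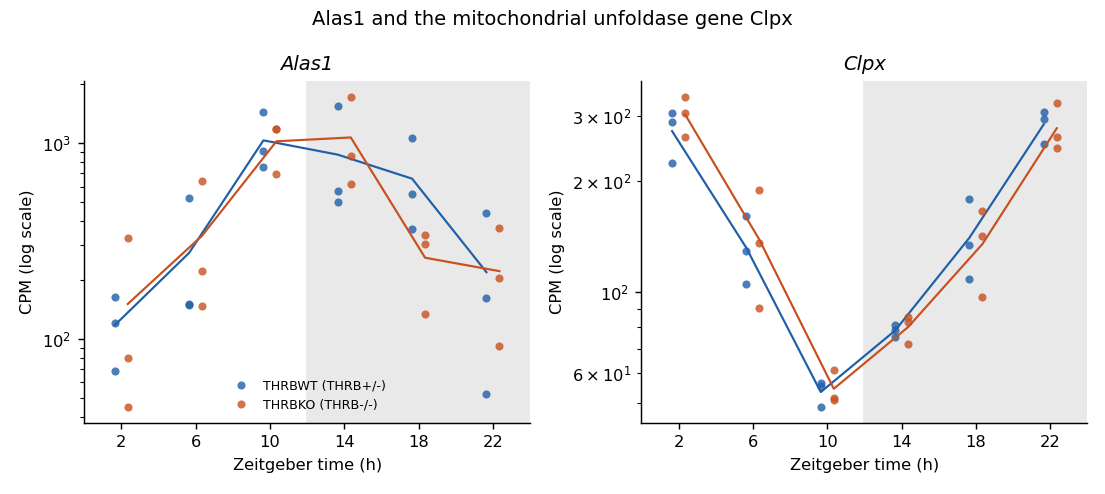
CPM (y axis, log scale) of *Alas1* and *Clpx* against zeitgeber time (x axis, h), each point a liver, lines the means of 3 mice per genotype and time, grey for the dark phase. Over both genotypes *Clpx* is lowest at ZT10 with a mean of 53.9 CPM, the time at which *Alas1* has its highest mean, 1028 CPM, and *Clpx* livers of a group lie closer together than *Alas1* livers.

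The widest ranges over the day among the genes described here were those of the regulators *Nr1d1* and *Nr1d2*. The other regulators had narrower ranges than the 7.67-fold of *Alas1*. Of 8 genes that sense heme or act on *Alas1*, 7 changed with time, against 45% of all genes, and 4 were lower in the dark, against 17.4%. *Nr1d1*, the heme-binding receptor REV-ERB alpha, fell from 164 CPM at ZT6 to 2.35 CPM at ZT22, 69.98-fold (adjusted p = 1.49e-19), and *Nr1d2* from 98.8 CPM at ZT10 to 7.82 CPM at ZT22 (12.6-fold, adjusted p = 7.55e-16). *Bach1*, a heme-regulated repressor of *Hmox1*, was highest at ZT10 with 53.6 CPM (2.27-fold, adjusted p = 1.28e-07). *Nr1i3*, the receptor CAR that induces *Alas1* with drugs, also had its highest mean at ZT10, at 75.6 CPM (2.20-fold, adjusted p = 1.10e-05).

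*Foxo1*, a factor of fasting that acts on *Alas1*, passed the test for genotype with time in the model, 1 of these 8 genes against 0.95% of all genes. It ranged from 19.2 to 37.5 CPM in THRBWT (median 24.05) and from 20.8 to 41.9 CPM in THRBKO (median 28.4). The groups overlapped, while the mean was higher in THRBKO at 6 of 6 times (log2 fold change 0.19, SE 0.043, adjusted p = 0.0215). With times pooled its adjusted p was 0.75, and no alternative was run for it. *Foxo1* also had its highest mean at ZT10, at 38.1 CPM against 22.4 CPM at ZT2.

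Of 10 genes that bind, scavenge or carry heme 6 changed with time. This count and those of the lists that follow are to be read beside the 45% of all genes that changed with time. The ranges were widest for *Flvcr2*, a choline and heme transporter of low level (4.31 CPM at ZT6 and 1.46 CPM at ZT18, adjusted p = 0.000953), and its paralog *Flvcr1* (1.72-fold, adjusted p = 0.00115). *Pgrmc2* followed at 1.40-fold (adjusted p = 0.00137) and *Lrp1*, the receptor of heme-hemopexin, at 1.39-fold (adjusted p = 2.76e-05). Of 4 genes for bilirubin 3 changed with time, all lower in the dark (17.4% of all genes were): the exporter *Abcc2* at 1.90-fold, the importer *Slco1b2* at 1.76-fold and *Abcc3* at 1.40-fold. Of 5 targets of NRF2 3 changed, *Gclc* (1.87-fold, highest at ZT2), *Nqo1* (1.71-fold, highest at ZT14) and *Gclm* (1.38-fold, highest at ZT6). Of 7 hemoproteins 6 changed, with *Cyp7a1*, the bile acid enzyme, at 4.08-fold and its highest mean at ZT14, *Cyp2e1* at 1.77-fold and *Tdo2* at 1.504-fold with their highest means at ZT10. None of the genes in these 4 lists passed the test for genotype with time in the model, against 0.95% of all genes. Nearest was *Cyp7a1*, with a log2 fold change of 0.73 (SE 0.21, adjusted p = 0.0796) and a higher THRBKO mean at 5 of 6 times. The paper lists *Cyp7a1* among genes with an increased mesor in THRBKO, at an unadjusted threshold. Of the markers, 1 of 6 erythroid, 0 of 6 Kupffer cell and 1 of 5 hepatocyte genes changed with time.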

How the data were processed

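Poly-A selected, non-directional paired-end libraries were mapped by the authors to GRCm38/mm10 with HISAT2 and counted per gene with featureCounts. Versions, annotation release and treatment of reads with several matches are not given in the sources used here. The authors deposited raw counts, whole numbers without normalization or filter, together with gene lengths and positions. Reads shared with a copy could move a count: at 95% identity over 80% of a copy, 1 annotated transcript (*Gm44845*, matching *Fech*) was found, with a mean of 0 counts. Chromosomes and positions of the windows are those of RefSeq, build GRCm38.p6.

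Genes reaching 100 counts summed across the 36 libraries were kept (17994), scaled by TMM and tested on the whole table with edgeR 4.0.16 (glmQLFit, glmQLFTest, limma 3.58.1, R 4.3.3). Models held genotype alone, genotype and time as a factor, their interaction, a mean per group, or sine and cosine terms of 24 h within a genotype. P-values were adjusted by Benjamini-Hochberg over all genes tested, threshold 0.05, at single times within each time. SE is the absolute log2 fold change over the root of F, and 95% intervals use the total degrees of freedom. Cosinor parameters were fitted on vst values of DESeq2 1.42.0 (blind = FALSE) and their differences tested by Wald tests, as in CircaCompare. Log2 CPM carry a prior count of 2. Scripts were tested on simulated data.

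Genotype, time and letter of a mouse come from the labels, and p-values measure the spread between mice. Between the 36 pairs of libraries within groups the chi-square per gene was 27.8 to 115, so none was a repeat of another. At the median of 33540565 counts per THRBWT library *Hmox1* had at least 444 counts in every library. Alternatives were DESeq2, its size factors, other low-count filters, replicate blocks (time and letter for genotype, letter alone for time), omission of each letter and other rhythm methods. Omission of the THRBWT liver b at ZT18 was added after the data were seen. The members, lists and tests were chosen with earlier results of these data known. Named were the 9 members, the 2 to 4 genes of each list with the largest change among those past the threshold, the 3 genes most correlated with each member, and markers. *Alas2*, *Foxo1* and single mice were described after their values were seen. Lipid data and cell culture of the study were not analysed here.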

Additional observations from a re-analysis of the deposited data

How the results depend on the processing

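Counts of called members for genotype stayed at 0 with DESeq2, its size factors, both other filters and each omission, over all times, with time in the model, in the interaction and, except DESeq2 and the omission of the THRBWT liver b at ZT18, which were not run there, at single times. Over all genes these fits called 16 to 99 with times pooled, 42 to 306 with time in the model and 0 in the interaction. A single fit with a block for each time and letter stood in for the genotype tests with times pooled and with time in the model. It called 1 member (*Alad*, log2 fold change -0.13, adjusted p = 0.0451) and 387 genes in all. Without the block 0 members were called, and 65 genes with times pooled and 171 with time in the model. The labels do not state that a letter pairs mice across genotypes. Same-lettered pairs of a time deviated together with r from -0.038 to 0.225 (median 0.102, 9 of 18 over 0.1). Pairs of different letters had a median r of -0.0578. Deviations from a group mean sum to 0, so this value is tied to that of the same-lettered pairs and adds no separate evidence. Of the 18 pairs, 15 correlated best with their own letter. The animal numbers in the labels lay within 5 of each other in 14 of 18 same-lettered pairs. Mice of the same time and letter may thus share a part that the tests without a block do not take into account. In the fit with this block 4 members had an unadjusted p under 0.05. Without it there was 1 with times pooled and 3 with time in the model. The share of all genes at this unadjusted threshold was not computed with the block. Sampling time and dark minus light were tested with a different block, of the letters a, b and c across all times. Their counts of members (5 and 4) did not move, with 8515 and 6491 genes called in all. The other tests were run with neither block. Omitting a letter, dark minus light gave 2 to 4 called members (4 with all), rhythm in THRBWT 4 to 5, in THRBKO 3 to 4, sampling time 5, and rhythm parameters 0 to 2 (3 with all). Over all genes, calls for sampling time fell from 8106 to between 5896 and 6425, and for dark minus light from 6220 to between 4664 and 5102. Calls for rhythm fell from 5952 to between 3169 and 4033 in THRBWT, and from 5207 to between 2394 and 3263 in THRBKO. A cosinor F test on vst values and the unadjusted threshold of 0.01 left rhythm at 5 and 4. In all, the F test called 5741 and 4929 genes, and that threshold 5276 and 4678. Among values of single members, 78 for genotype, 62 for dark minus light and 79 for sampling time kept their direction and side of the threshold. Directions reversed for *Alas1* by genotype without letter b (0.0223, with -0.177 to 0.0223 over the letters, adjusted p = 0.988) and without the THRBWT liver b at ZT18 (0.0469, adjusted p = 0.961), and for dark minus light of *Alas1* without letter b (-0.106, with -0.106 to 0.960 over the letters, adjusted p = 0.851) and of *Urod* without letter a (-0.0301, with -0.0301 to 0.0287, adjusted p = 0.558). None of these 4 passed the test in the first place, and the cause was not tested. The members had a mean of 716 to 18095 counts per library, and no alternative of lower depth was run.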
